A study of Drosophila melanogaster with 2 samples.

Results

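The 10 genes described here are the gap and head patterning genes *hb*, *Kr*, *kni*, *gt*, *tll*, *hkb*, *oc*, *ems*, *btd* and *cad*, out of 13968 protein-coding genes on the chromosome arms. They were chosen as a group by their role in the embryo, and each peak was given to a gene when its summit lay in the gene body, within 10 kb of the body, or nearer to a start of that gene than to any other protein-coding start. Binding was measured by chromatin immunoprecipitation and sequencing (ChIP-seq) and was deposited as lists of peaks. The protein was Rough, a *Drosophila melanogaster* homeodomain factor best known from the developing eye. All samples form 1 group: whole embryos aged 0 to 24 h of 1 transgenic strain, ro-GFP, which makes Rough fused to eGFP, precipitated with an antibody against GFP, in 2 biological replicates. The labels do not say what drives the transgene, and input or mock libraries were not analysed here. A collection over 24 h mixes embryos in which the early patterning genes act with older embryos, so a peak cannot be placed in time or in a cell type.

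In the early fly embryo, maternal gradients and terminal signals set off the gap genes, whose protein domains divide the body into broad regions. Their products are transcription factors that repress and activate one another and then the pair-rule and homeotic genes. Head gap genes pattern the anterior segments in overlapping domains, and *cad* acts in the posterior. Enhancers of these genes commonly lie some kilobases away from the promoter, in introns or in intergenic sequence.

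Rough-eGFP peaks were few at these genes and none lay at one of their own promoters. In the optimal set, the larger list over both replicates, *btd*, *cad* and *ems* each had 1 peak, and the other 7 genes had none. That is 3 of 10 genes (30.0%, Wilson 95% interval 10.8% to 60.3%), against 36.0% of all protein-coding genes by the same rule, so the number of genes with a peak is no result about this group. Each of the 3 peaks lay outside the gene body, between 4290 bp and 11206 bp from it, and those of *btd* and *cad* were nearer to the start of another gene. Every peak of the authors' thresholded sets was a ranked candidate whose irreproducible discovery rate (IDR), an estimate of the chance that a peak's rank would not repeat, was at most 0.01, that is a −log10 IDR of at least 2. The limit alone does not define the sets, since 2113 candidates of the optimal ranking met it and the set holds 1969; none of the candidates left out was at these 10 genes.

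The bases around the strongest thresholded summit of each gene that had one in any list are shown here, 1 place for each of the 4 genes; the other thresholded places of *ems* are described with that gene. Each run is 201 bases of the plus strand of dm6, read from RefSeq's Release 6 assembly, 5′ to 3′, with the summit at the middle. Capitals mark any match, on either strand, to the 5 words searched. The homeodomain core was searched as TAATTA, which reads the same on both strands. The word of the Bicoid and Orthodenticle type was TAATCC. The word of the Caudal and Abd-B type was TTTATG. The word of the Zelda type was CAGGTA. The word of the GAGA factor type was GAGAG, which appears as its complement where it lies on the minus strand.
btd, optimal set, chrX:9687667-9687867: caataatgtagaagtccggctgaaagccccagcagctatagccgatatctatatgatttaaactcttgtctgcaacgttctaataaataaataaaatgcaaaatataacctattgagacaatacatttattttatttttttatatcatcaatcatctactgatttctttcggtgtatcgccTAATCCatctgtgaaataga
cad, optimal set, chr2L:20787325-20787525: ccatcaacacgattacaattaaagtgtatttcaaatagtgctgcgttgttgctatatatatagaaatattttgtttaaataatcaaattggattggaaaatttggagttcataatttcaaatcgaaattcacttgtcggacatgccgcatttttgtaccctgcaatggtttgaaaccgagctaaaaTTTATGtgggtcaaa
ems, optimal set, chr3R:13915726-13915926: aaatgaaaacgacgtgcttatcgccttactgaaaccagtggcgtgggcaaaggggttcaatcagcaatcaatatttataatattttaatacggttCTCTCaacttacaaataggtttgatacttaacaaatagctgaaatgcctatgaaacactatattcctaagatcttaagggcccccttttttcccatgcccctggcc
oc, replicate 1, chrX:8627272-8627472: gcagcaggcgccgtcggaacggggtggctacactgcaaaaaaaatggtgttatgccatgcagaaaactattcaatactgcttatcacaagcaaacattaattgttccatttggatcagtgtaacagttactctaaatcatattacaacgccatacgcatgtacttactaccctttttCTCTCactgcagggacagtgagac

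None of these 4 windows, 0 of the 3 optimal-set peaks included, held the homeodomain core. Of the 1883 optimal-set peaks on the arms, 16.9% held it over the full 201 bases and 10.2% within 50 bp of the summit. The *ems* run had the GAGA-type word on the minus strand, 3 bp to the left of the summit, the only searched word that lay within 50 bp of the summit in these 4 windows. That word lay so close in 9.82% of all optimal-set peaks. The other matches were farther out, all to the right of the summit: the Bicoid-type word at 84 bp in the *btd* run, the Caudal-type word at 89 bp in the *cad* run and the GAGA-type word at 79 bp in the *oc* run. Over the full 201 bases these words occurred in 6.32% (Bicoid type), 23.2% (Caudal type) and 24.3% (GAGA type) of optimal-set peaks, and no match here overlapped another. Within 50 bp the shares were 3.72% for the Bicoid type, 13.3% for the Caudal type and 1.65% for the Zelda type. A match is a run of letters and not a site, and its absence from a window says nothing about binding. The 101 bp around the *btd* summit were 80.2% A and T, a share exceeded by 3.51% of optimal-set peaks, against a mean of 65.6% ± 10.8 (SD, n = 1883). The *cad* window had 72.3% and the *ems* window 70.3%, both within 1 SD of that mean.

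The lists came in 4 pairs, a ranking of candidates and the thresholded set cut from it: the optimal set with 1969 peaks of 144610 candidates, the smaller conservative set with 1627 of 142843, replicate 1 with 1484 of 93400 and replicate 2 with 1113 of 121684. The signal is the authors' own value for each peak, higher for stronger enrichment; its unit is not given in the sources used here. Each ranking has its own scale, with a median signal over its candidates of 19.2 in the optimal ranking, 12.8 in replicate 1 and 13.2 in replicate 2, so signals are read within a list and ranks are given beside them. Most peaks of a list had 1 fixed width (380 bp in both sets over both replicates, 356 bp in replicate 1 and 276 bp in replicate 2). The lists hold no read counts, so depth is unknown.

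Among the head genes, *btd*, which encodes a zinc-finger factor of the Sp family needed for several head segments (chrX:9694186-9697558, plus strand), had the strongest peak of the group. It lay at chrX:9687577-9687956, 6419 bp upstream of *btd*, with a signal of 162 in the optimal set (rank 432 of 1969). In replicate 1 the overlapping peak had a signal of 79.9 (rank 589 of 1484), and in replicate 2 it had 93.1 (rank 283 of 1113). The peak was thus in all 4 thresholded sets, with −log10 IDR between 3.66 and 3.94, and its summits in the 2 replicates were 105 bp apart. Its start neighbours were not *btd*: the start of *nej*, which encodes the fly CREB-binding protein, an acetyltransferase and co-activator, was 701 bp away, and the start of the non-coding gene lncRNA:CR42657 was 422 bp away, which puts the summit in the promoter class used here. The next strongest *btd* candidate, in its coding sequence 1129 bp from the start, had a signal of 39.3 in the optimal ranking and 20.4 in replicate 1 and 18.8 in replicate 2, and none of these was thresholded.

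*ems*, a homeodomain head gap gene (chr3R:13901853-13904620, plus strand), had its peak at chr3R:13915636-13916015, 11206 bp beyond its 3′ end in intergenic sequence. Its own start, 13973 bp away, was the nearest protein-coding start, and only this put the peak in its count. The signal was 100 in the optimal set (rank 1007 of 1969) with a −log10 IDR of 2.74. In the single replicates the place was ranked high and not thresholded: replicate 1 gave 66.7 (rank 858 of 93400) with a −log10 IDR of 0.491, and replicate 2 gave 38.3 (rank 1860 of 121684) with 1.60. These 2 summits lay 124 bp apart. A neighbouring place at chr3R:13914778-13915133 was thresholded in replicate 1 alone, with a lower signal of 54.8 (rank 1106 of 1484) and a −log10 IDR of 2.43, and the overlapping candidate of replicate 2 had 13.0 and was only in the top 51.3% of its ranking. A further peak, 3220 bp beyond the gene at chr3R:13907650-13908029, was in the conservative set only, with 75.2 (rank 1363 of 1627). It had the same signal in the optimal ranking, where its −log10 IDR was 0.249 against 2.09 in the conservative ranking, so membership there turned on the IDR and not on the signal. The 3 places lie within 11.2 kb downstream of *ems*, and candidates at the third gave 52.1 in replicate 1 and 30.9 in replicate 2. The place thresholded in replicate 1 alone had the GAGA-type word on the minus strand, 39 bp to the right of its summit. The place in the conservative set only had the Caudal-type word 97 bp to the left of its summit.

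*oc* (orthodenticle, chrX:8630159-8650681, minus strand), the homeodomain gene of the anterior head, had a thresholded peak in replicate 1 alone. It lay at chrX:8627194-8627549, 2787 bp beyond the 3′ end, with a signal of 61.2 (rank 929 of 1484) and a −log10 IDR of 2.91. The conservative ranking held a candidate there with 82.6 and a −log10 IDR of 0.377, and replicate 2 gave 18.8, in the top 23.6% of its candidates. The optimal ranking held none there, in a stretch of 10.3 kb between neighbouring summits that also listed nothing else (1040 of 139571 distances were longer), so its absence from that ranking is not a measured lack of signal. In the optimal ranking its strongest candidate was instead 6048 bp upstream at chrX:8656539-8656918, with 65.9 (rank 2278 of 144610) and a −log10 IDR of 1.25. That upstream place was listed in both replicates below the threshold, with 36.1 in replicate 1 (top 2.73%) and 25.5 in replicate 2 (top 7.70%). The q values there were 0.171 and 0.851. Replicate 2 had its strongest *oc* candidate elsewhere, at chrX:8629660-8629935, 361 bp beyond the 3′ end. This candidate had 36.9 (rank 2063 of 121684), a −log10 IDR of 1.37 and a q of 0.379, and lay in the stretch where the optimal ranking listed nothing.

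*cad* (chr2L:20770731-20783135, plus strand), the homeodomain gene of the posterior, supplied from the mother and again by the zygote, had 1 peak in all 4 sets at chr2L:20787235-20787614. Its signal was 126 in the optimal set (rank 677 of 1969), 63.9 in replicate 1 (rank 864 of 1484) and 65.5 in replicate 2 (rank 560 of 1113). The −log10 IDR lay between 3.06 and 3.17, and the replicates' summits were 3 bp apart, against 105 bp at *btd* and 124 bp at *ems*. It was 4290 bp beyond the end of *cad* and 231 bp from the start of *Pomp*, which encodes the proteasome maturation protein. Inside *cad*, the strongest candidate was intronic, at chr2L:20780714-20781093, with 51.8 (rank 4855 of 144610) and a −log10 IDR of 1.68. Replicate 1 had 32.3 there, and the strongest intronic candidate of replicate 2, with 29.3, lay at another place.

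**Figure D1:**
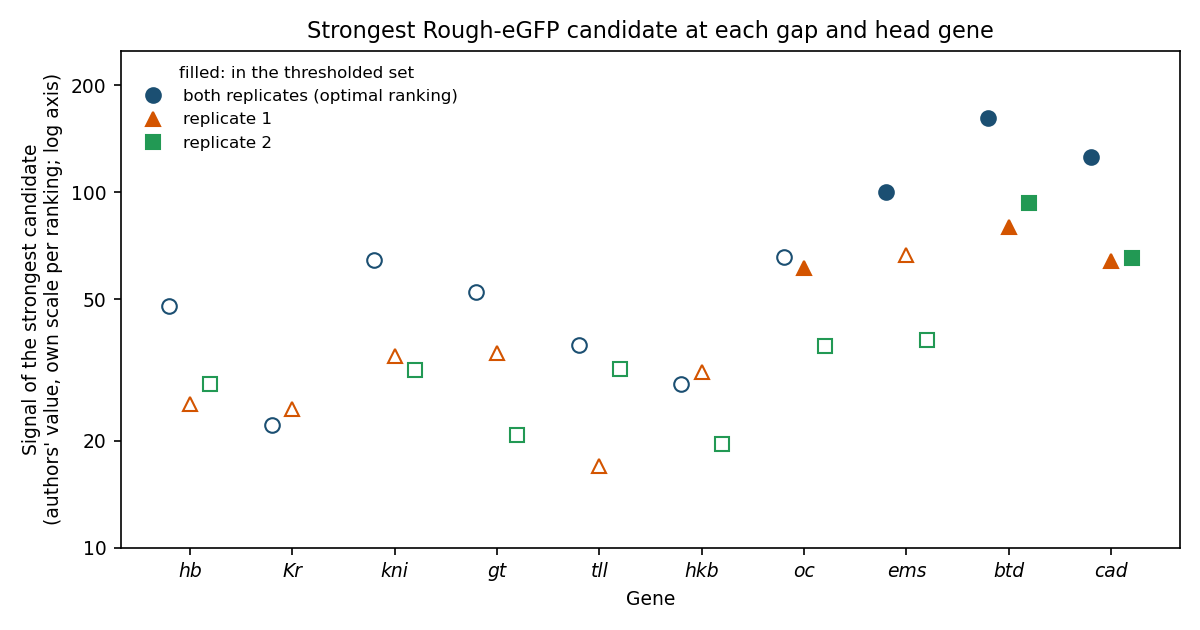
Signal of the strongest ranked candidate at each gene (vertical log axis, the authors' value on each ranking's own scale) in the optimal ranking over both replicates, in replicate 1 and in replicate 2; a filled mark is in that list's thresholded set. *btd* and *cad* are filled in all 3, *ems* in the ranking over both replicates alone (its thresholded place in replicate 1 was not its strongest there) and *oc* in replicate 1 alone, and *Kr* has no candidate in replicate 2.

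The trunk gap genes had no thresholded peak in any of the 4 sets. *hb*, the zinc-finger gap gene of the anterior (chr3R:8690980-8697822, minus strand), had 36 candidates in the optimal ranking, and the strongest was at chr3R:8697364-8697743, 268 bp inside the gene from a start. Its signal was 47.9 (rank 6706 of 144610), with a −log10 IDR of 0.480. The strongest *hb* candidates of the replicates lay elsewhere, with 25.3 at 3568 bp upstream in replicate 1 and 28.8 at 9583 bp downstream in replicate 2. Among the genes without a thresholded peak, *hb* alone had its strongest optimal candidate within 500 bp of its own start. That of *hkb* was just past this limit, at 507 bp.

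*kni*, a gap gene of the nuclear receptor family acting in the abdomen (chr3L:20692330-20695378, minus strand), had the most candidates by the rule, 55 in the optimal ranking. Only 32 of them lay in its body or within 10 kb, where *cad* had 40, and the rest counted by the nearest start. The strongest, at chr3L:20672784-20673163, lay 19356 bp downstream in intergenic sequence with a signal of 64.4 (rank 2389 of 144610). It was 21582 bp from a start of *kni* and 20068 bp from the start of the non-coding gene lncRNA:CR44685. Replicate 1 had 34.7 at its strongest place and replicate 2 had 31.7, and these summits were 9061 bp apart. *gt*, a basic leucine zipper gap gene (chrX:2427113-2428967, minus strand), had 52.5 (rank 4603) at chrX:2418704-2419083, 8219 bp downstream and nearer to a start of CG32797. Replicate 1 had 35.4 at the same place (top 2.87%), while the strongest of replicate 2, 20.8, was 6493 bp away in the promoter class of CG32797. The −log10 IDR of the *kni* and *gt* candidates was 0.497 and 0.567 in the optimal ranking, far under 2.

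*Kr*, a zinc-finger gap gene of the central embryo that lies within an intron of CG9380 (chr2R:25226611-25231394, plus strand), stood apart in how few candidates were listed. The optimal ranking had 3, all 11096 bp or more upstream and the strongest with a signal of 22.1 (rank 60422 of 144610), and none within 10 kb. The conservative ranking and replicate 2 had none at all. Replicate 1 listed 26, of which 17 were within 10 kb, and its strongest lay in the coding sequence of *Kr* with 24.5 (top 9.70%). Around *Kr* the distance between neighbouring summits was 51.2 kb in the optimal ranking, where the median over the arms was 635 bp and 26 of 139571 distances were longer. In replicate 2 it was 102 kb, with 6 of 118801 longer, and in replicate 1 the longest distance across the gene was 4.84 kb. No window candidate was listed for 284 genes (2.03%) in the optimal ranking. Why the stretch has no candidates in replicate 2 was not tested, and 0 peaks at *Kr* is not a measurement of low binding.

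The terminal gap genes *tll* and *hkb*, which answer to Torso signalling at the poles, had the lowest signals after *Kr* for the strongest candidate in the optimal ranking, though not in each replicate. *tll*, of the nuclear receptor family (chr3R:30852315-30854400, plus strand), reached 37.3 (rank 17942 of 144610) at chr3R:30863839-30864218, 9629 bp downstream and nearer to *Cpr100A*. Replicate 1 gave at most 17.0 near *tll*, in the top 29.9% of its ranking, and replicate 2 gave 31.9 at 2 places, 3211 bp downstream and 8821 bp upstream, each in the top 2.78%. *tll* was thus ranked higher in replicate 2 than in replicate 1, the reverse of *gt* and *hkb*. *hkb*, a zinc-finger gene (chr3R:4345015-4346646, minus strand), had 4 candidates in the optimal ranking and 1 in replicate 2, against 7 in replicate 1. The strongest, at chr3R:4346963-4347342, lay 507 bp upstream with 28.8 (rank 37343 of 144610), where replicate 2 had 19.6, and the strongest of replicate 1 was 31.3 at 905 bp downstream. Its 0.185 candidates per kb of window was below the density of all but 3.67% of genes, and replicate 1 was sparse there too, with 0.324 per kb against a median of 0.733 over all genes. The longest distance between neighbouring summits across *hkb* was 12.9 kb in the optimal ranking, 14.0 kb in replicate 2 and 1.81 kb in replicate 1.

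**Figure D2:**
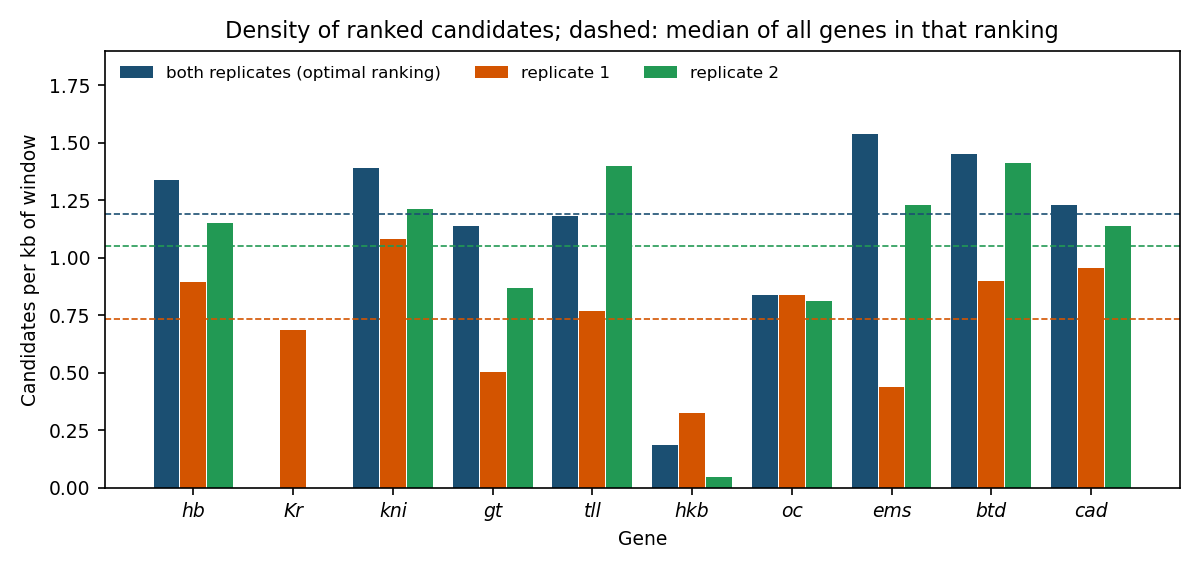
Ranked candidates per kb of each gene's window (the body and 10 kb each side) in the optimal ranking and in each replicate; dashed lines give the median of all protein-coding genes in the ranking of the same colour. *Kr* has bars in replicate 1 alone, and *hkb* is below all 3 medians.

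Over the whole group, the optimal ranking held 325 candidates and 3 of them (0.923%, Wilson 95% interval 0.314% to 2.68%) were in the optimal set, against 1.34% of all candidates on the arms. Their median signal was 18.6 against 19.3 for all. The strongest candidate of each gene had a median of 58.5 over the 10 genes and of 58.3 over all genes, with 5 of the 10 above the latter. The genes ran from *btd*, with 12.4% of all genes above it, through *cad* (18.2%), *ems* (24.6%), *oc* (39.0%), *kni* (40.3%), *gt* (61.1%), *hb* (73.1%) and *tll* (93.1%) to *hkb* (97.0%) and *Kr* (97.6%). *btd*, *cad*, *ems* and *oc* held the 4 highest places of the group in all 4 rankings. The lower places differed between rankings: the share of genes above *hkb* was 53.2% in replicate 1 and 95.9% in replicate 2, that above *tll* was 97.2% and 53.0%, and that above *gt* was 41.9% and 94.8%. The places of *Kr* and *hkb* over both replicates rest on stretches with few or no candidates, and no test was made of the order.

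**Figure D3:**
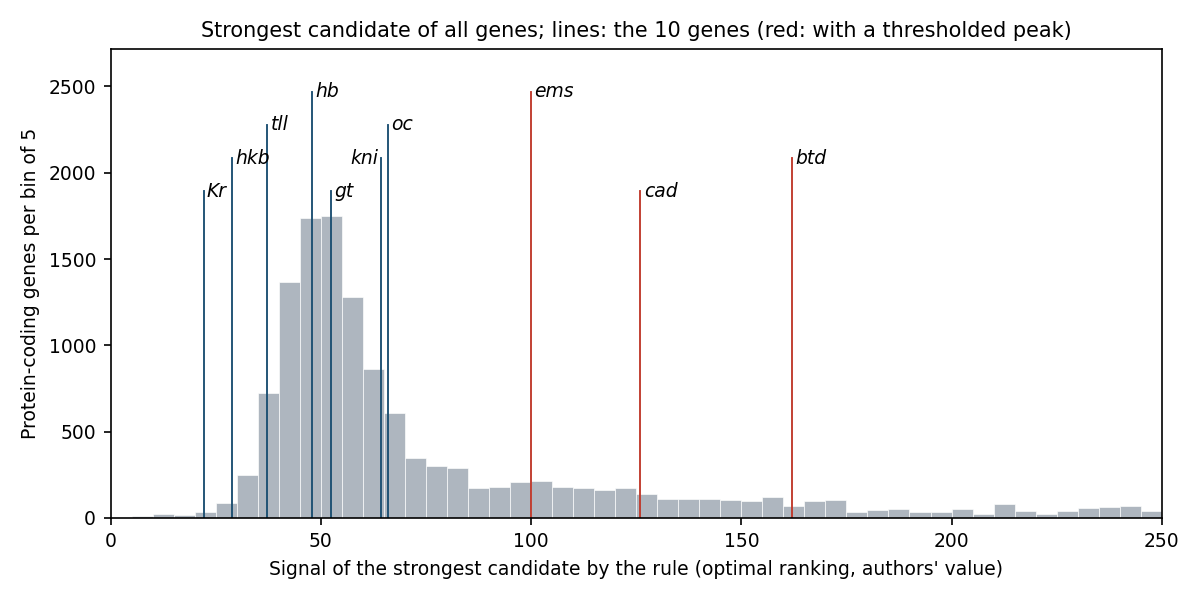
Distribution over protein-coding genes (vertical axis, genes per bin of 5) of the signal of the strongest candidate in the optimal ranking (horizontal axis, drawn up to 250), with a line for each of the 10 genes, red where it had a thresholded peak. The other 7 genes lie between 22.1 (*Kr*) and 65.9 (*oc*), and *ems*, *cad* and *btd* lie in the tail at 100, 126 and 162.

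The strongest candidates of replicates 1 and 2 overlapped at *btd*, *cad* and *ems*, that is at 3 of the 9 genes with candidates in both rankings, against 34.2% of all genes. At the other 6 the strongest summits of the replicates were between 2426 bp (*oc*) and 19993 bp (*hb*) apart. The 3 genes are also those with a peak in the optimal set, a list made over both replicates.

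Counts differed between the lists. The conservative set gave 3 genes (the same as the optimal set) with 4 peaks, against 32.0% of all genes. Replicate 1 gave 4 genes (*oc* added), against 28.7%, and replicate 2 gave 2 genes (*btd* and *cad*), against 25.8%. Both replicates' own sets shared a peak at these 2 genes, against 19.5% of all genes. With 10 genes the intervals reach from 16.8% to 68.7% in replicate 1 and from 5.67% to 51.0% in replicate 2, and the background share lies within the interval in each list.

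By location, no gene of the group had an optimal-set summit within 500 bp of its own start, which 7.62% of all genes had, or in its own body, which 6.01% had; with shares of that size, 0 of 10 is no result about the group. Candidates did occur there: 18 of the 325 lay within 500 bp of an own start, at 9 of the 10 genes. In an own body lay 67, also at 9, *Kr* being without in both counts. The same shares over all genes were not counted for candidates. In the wider window of the body and 10 kb each side, only 2.03% of all genes had no candidate. Without the matching shares, the counts near own starts and in own bodies are no result about the group. Intergenic sequence held 217 (66.8%) of the group's candidates, against 25.6% of all candidates, while introns held 36 (11.1%, against 37.2%). Coding sequence held 38 (11.7%, against 20.2%). The group's candidates come from the sequence around 10 genes and the comparison from whole arms. The 2 were not matched for how much intergenic, intronic or coding sequence they cover, so these differences are no result about binding. Of the intronic candidates, 18 were at *cad*, 11 at *oc*, 3 at *hb*, 3 at *Kr* and 1 at *btd*, and *kni* (50) and *ems* (47) had the most in intergenic sequence. In the optimal set as a whole, 46.1% of peaks were in the promoter class and 14.5% were intergenic.

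**Figure D4:**
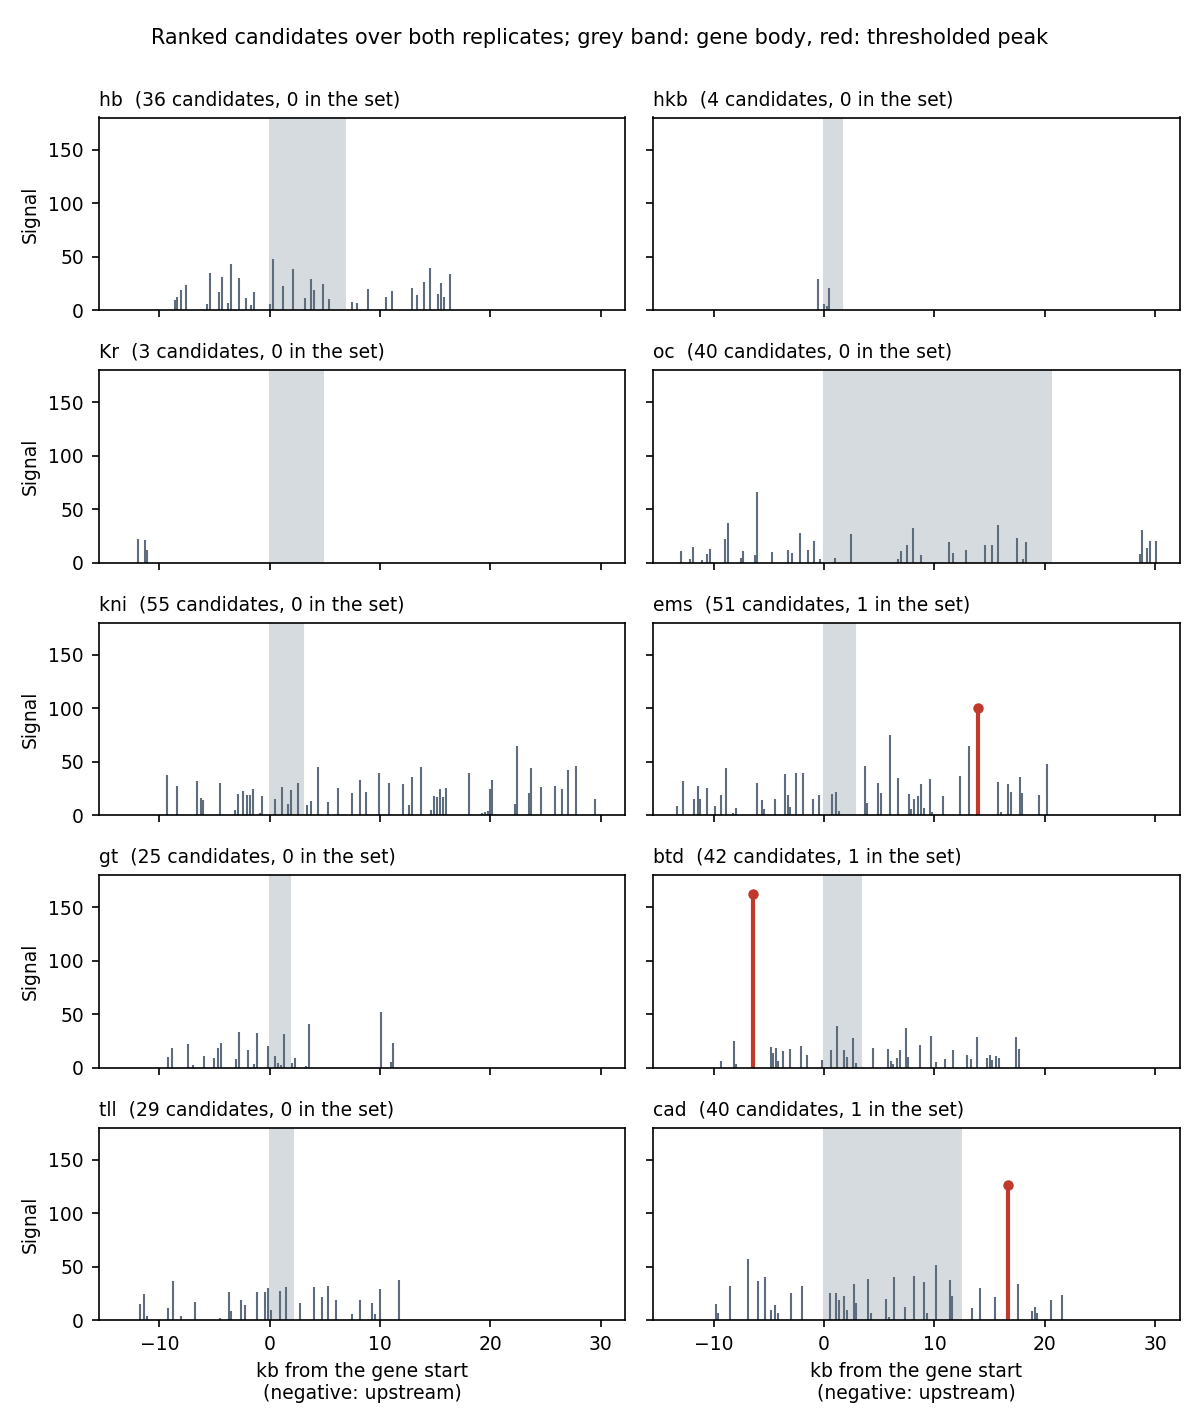
All 325 candidates of the optimal ranking around the 10 genes, with signal (vertical axis, the authors' value) against distance from the outermost gene start in kb (negative is upstream) and the gene body in grey. Red marks the 3 thresholded peaks, which lie outside the bodies of *ems*, *btd* and *cad*.

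The peak nearest to the 10 kb limit on its inner side was that of *btd*, at 6419 bp, which a window of 5 kb left out, while the *ems* peak at 11206 bp lay beyond the limit and counted by its nearest start. Just outside the rule were an optimal-set peak of signal 113 that lay 16626 bp upstream of *ems* and was nearest to *E5*, the neighbouring homeobox gene, and peaks of 71.8 at 11454 bp upstream and 82.1 at 16920 bp downstream of *cad*, nearest to *dia* and CG9328. For the other genes, the nearest optimal-set peak was 20.8 kb from *oc*, 21.6 kb from *hb* and 34.8 kb from *tll*. It was 39.8 kb from *gt*, 48.7 kb from *hkb*, 76.7 kb from *kni* and 257 kb from *Kr*. These distances were not set beside those of all genes, and that of *Kr* includes part of the stretch without candidates.

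Of 25 further genes that act with this group, 14 had an optimal-set peak by the same rule: 8 of 11 maternal and terminal genes and 6 of 14 gap-like, head and gut genes, beside the 36.0% of all genes. In replicate 1 there were 10 of 25 (7 maternal and terminal, 3 of the others), beside 28.7% of all genes. In replicate 2 there were 7 (4 and 3), beside 25.8%, and the genes with a peak in both were also 7 (4 and 3), beside 19.5%. *slp1* and *slp2* count as 2 genes here for 1 shared peak. The strongest peaks of *bcd* and *nos* lay in the promoter class, 349 bp from a start of *Ama* and 109 bp from starts of CG42359 and *Nsun5*. That of *osk* lay 9031 bp upstream of its body and nearer to *pyd*, and that of *salm* lay 27101 bp downstream. No test was made of these shares, and they are no result about binding at these genes. The highest signal, 317 (rank 117 of 1969), belonged to 1 intergenic peak between *slp1* and *slp2*, the neighbouring forkhead genes of the head and segments, at chr2L:3832416-3832619. It lay 5434 bp beyond *slp1* and 4307 bp upstream of *slp2*. *gro*, which encodes the Groucho co-repressor, followed with 233 at its own promoter, 124 bp from a start. *cnc*, a basic leucine zipper gene of the head, had 168 at 9930 bp downstream, nearer to *Irk1* and CG46310, *cic*, the repressor relieved by Torso signalling, had 125 in a 5′ UTR, and *Stat92E*, the JAK pathway factor, had 120 in an intron. The *slp1* and *slp2* peak and those of *gro* and *cnc* were stronger than the 162 at *btd*, and *cic* and *Stat92E* were within the range of the group's own 3 peaks. Of the 25, *tor*, *trk*, *tsl*, *knrl*, *croc*, *D*, *pdm2*, *opa*, *Optix*, *fkh* and *Lim1* had none.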

How the data were processed

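The authors deposited 4 rankings of candidate peaks and the thresholded set of each (replicate 1, replicate 2, and an optimal and a conservative version over both), on dm6 per the labels. The deposited signal is the authors' value per peak. The q value is deposited as −log10 q (a log10 value that falls slightly below 0 in the lists over both replicates), and the rankings carry a deposited −log10 of the global IDR, at least 2 in every thresholded peak. The aligner and the caller were not given in the sources used here, and neither was the read depth. Per the labels, chromatin was sonicated to 200 to 800 bp. In the rankings over both replicates, 16 columns were matched to no sample and not used.

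Peaks were placed by summit against Ensembl release 115 (BDGP6.54), without transposable elements and pseudogenes. Locations were taken in the order promoter (within 500 bp of any start), UTR, coding, exon, intron and intergenic. Percentages have Wilson 95% intervals for counting error only. No test was made: there is 1 group, and each share is set beside that over all genes.

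The 10 genes and the lists were chosen with earlier results of these data known. Named were the 10 genes with their thresholded peaks or strongest candidates, genes with a start nearer to such a peak, and the 6 of 25 listed partners with the strongest optimal-set peak. *nos* was matched through its synonym *nanos*. Alternatives were other windows and gene assignments, overlaps, word windows, peaks at or above the median signal, the conservative set and each replicate alone; a limit on q of 0.05 was added after seeing the data. Peak assignment was tested on simulated data. Tools were Python 3.11.15, numpy 2.4.6, pandas 2.3.3, scipy 1.17.1 and matplotlib 3.10.9.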

Additional observations from a re-analysis of the deposited data

How the results depend on the processing

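Of 43 alternative values, 33 stayed within 1.5 times of those reported or inside their interval, and 10 moved. The intervals are wide: with the nearest start alone, 0.383% of candidates were in the optimal set against 0.923%, and this counted as stayed. The values reuse the same peaks and settings, so the tally is not one of independent checks. With the nearest start alone, the number of genes with an optimal-set peak fell to 1 (*ems*), the number of peaks to 1 and the genes with a peak in both replicates' own sets to 0. With the gene body and 2 kb around it, all 3 counts were 0 and the share of candidates in the set was 0%. A window of 20 kb raised the peaks to 6, and one of 5 kb left 1 gene with a peak in both replicates, as did asking for summits within 100 bp. Using replicate 2 alone gave 2 genes and replicate 1 alone gave 4. A q of at most 0.05, chosen after seeing the data, left 2 genes, without *ems*. Of all optimal-set peaks, 53.4% had a q above that limit. The share over all genes was not recounted for the other windows, gene assignments and the q limit. The changed counts are thus no result about the group. TAATTA was at 0 of the 3 summits with windows of 25 and 100 bp as well. No paired analysis was possible because all samples belong to 1 group. Depth is unknown, so a place without a candidate is not shown to lack binding.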
